A study of Homo sapiens with 21 samples.

Results

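The genes described here are the 3 FOXO transcription factor genes FOXO1, FOXO3 and FOXO4 and 7 genes linked to them, FBXO32, PIK3IP1, TXNIP, IRS2, BCL6, CCNG2 and SESN3. They were chosen by symbol, as a family with its known or proposed targets, by a rule that uses no measured value. Earlier results of these data were known when the choice was made. They are 10 of the 23201 gene symbols in the series, and all 10 were among the 13343 genes tested. The RNA came from HMLE, a standard immortalized cell line grown from human mammary epithelium, either untreated (d0) or exposed to TGFβ for 1, 4, 7, 10, 15 or 20 days. TGFβ is a cytokine that drives epithelial cells into epithelial to mesenchymal transition (EMT). The 21 libraries fell into 7 timepoints of 3, and every group was the same line, with the TGFβ treatment and its length as the labelled differences. Cells were plated at equal density, and how they were passaged over the 20 days is not given in the sources used here. The untreated group was taken on d0 only, so time in culture and time on TGFβ cannot be told apart.

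FOXO factors are forkhead proteins that bind DNA and turn on genes of cell cycle arrest, stress resistance, autophagy and cell death. Insulin and growth factors act through PI3K and AKT, which phosphorylates FOXO proteins so that 14-3-3 proteins hold them in the cytoplasm. When this input is low, FOXO proteins stay in the nucleus, a state associated with quiescence, the reversible exit from the cell cycle. RNA-seq measures the transcripts of these genes and not the location or phosphorylation of the proteins.

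The values are normalized read counts, reads divided by 1 size factor per library, so they compare a gene between libraries but not genes of different length with each other. The recovered reads totalled between 18847917 and 22667754 per library, and the lowest count of any of the 10 genes in a library was 56 reads. All 9 mammary epithelial markers were detected at every timepoint, led by KRT5 or KRT17, and the summed value lay between 226284 and 719147. Of 5 leukocyte markers 2 were above 3 reads in at least 1 library of every timepoint, with summed values of 16.6 to 71.2. Of 3 adipocyte markers 2 were, with summed values of 8.8 to 40.4. CD3E and PTPRC were at 0 in all libraries of several timepoints, and the endothelial marker CDH5 was at 0 from d0 to d7. Of the 5 endothelial markers 4 were above 3 reads in at least 1 library of every timepoint, though TEK had 0 to 4 reads on d0 and KDR 2 to 4 on d10. All 5 summed to between 29.2 and 290.7, the most on d15, where KDR, a growth factor receptor gene, had a mean of 263.1. In bulk RNA, fewer cells expressing a gene and less of its RNA per cell cannot be told apart.

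The third d7 library (libraries are numbered here in column order, since the columns carry no replicate number) stood apart from the other 2. It differed from them by a root mean square of 0.472 and 0.457 on the log2 scale over the genes tested, while those 2 libraries differed by 0.223. All 10 genes were lower in it than the mean of the other 2, with a median log2 difference of -0.77, whereas 48.7% of all genes tested were lower and the median over all genes was 0.01. FOXO1, TXNIP and BCL6 were at least 2-fold lower in it (3 of 10 genes, against 3.19% of all genes). The d7 value of each of the 10 genes is therefore given with and without this library. Because the fit shares 1 spread per gene over all timepoints, this library also widened the errors of all 10 genes on the other days. The widening was largest for FOXO1 and TXNIP (standard error 0.30 each, against 0.09 and 0.08 without this library).

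Promoter sequences of 9 of the 10 genes were read from RefSeq (GRCh38.p14) as windows of 300 bases, 250 before and 50 after each annotated start, and FBXO32 is not shown. They are printed to show where the letters GTAAACA, the core that forkhead factors including FOXO bind, stand next to these starts. GTAAACA occurred, on either strand, in the windows of 3 of the 9 genes (TXNIP, FOXO4 and PIK3IP1). It occurred in those of 4.19% of all 27305 genes with windows, or 3.42% of all 35116 windows. The TXNIP window also held a pair of CACGNG elements spaced by 5 bases, the layout of carbohydrate response elements through which glucose-sensing factors act, which was found in 0.06% of all windows. Another motif, the E-box CACGTG, was found in CCNG2 alone of the 9 genes and in 8.77% of all genes with windows. The sequence before the TXNIP start, at chr1:145996580-145996829 on the minus strand, has GTAAACA at position -124 and the CACGNG pair from -88 to -72, both in capitals.
TXNIP: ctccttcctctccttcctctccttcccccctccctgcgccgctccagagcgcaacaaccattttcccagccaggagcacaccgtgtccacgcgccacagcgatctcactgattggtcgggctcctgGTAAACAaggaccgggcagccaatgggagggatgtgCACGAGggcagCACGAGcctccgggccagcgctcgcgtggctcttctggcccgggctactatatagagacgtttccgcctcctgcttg
In PIK3IP1 the match lay on the opposite strand between 17 and 23 bases after the start, and the stretch at chr22:31292454-31292483 (minus strand) shows it in capitals as the reverse complement of GTAAACA.
PIK3IP1: taaagagaggcTGTTTACcagaacagcata
In FOXO4 the match lay between 24 and 30 bases after the start, in the stretch at chrX:71095863-71095892 (plus strand), again in capitals.
FOXO4: cccggcgagtgGTAAACAgagacgtcagga
These letters are a description of the sequence, and no binding was measured. A relation of these letters to the levels of the 10 genes was not tested.

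Most of the 10 genes shared a course that rose and fell more than once over the 20 days. Against d0, 2 were higher and 6 lower on d1, 7 higher and 2 lower on d4, 7 higher and none lower on d7, 3 higher and 7 lower on d10, 8 higher and none lower on d15, and 3 higher and 5 lower on d20 (limma, adjusted p under 0.05). None was lower on d7 or d15 at an unadjusted p under 0.05 either, nor with edgeR or DESeq2, but FOXO4 was called lower on d7 after rescaling each library to the same total, and SESN3 on d15 after that rescaling, under quantile normalization, with only the 2 groups in the fit, with all groups but d7 and without the third d7 library. The median log2 fold change over the 10 genes was -0.65 on d1, 0.71 on d4, 0.87 on d7, -1.4 on d10, 1.30 on d15 and -0.33 on d20, while the median over all genes tested stayed between 0 and 0.03. The median on d7 was 1.08 without the third d7 library. All of these comparisons share the same 3 untreated libraries, and the libraries of all 7 timepoints entered 1 fit.

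These counts stand against a large background, since over 50% of all genes tested differed from d0 on each day. Of all genes tested, 31.3% were called higher and 28.5% lower on d1, 36.9% and 35.3% on d4, and 34.6% and 32.6% on d7. On d10 37% were called higher and 30.7% lower, on d15 39.2% and 37.3%, and on d20 32.5% and 30.2%. The share of the 10 genes called higher was thus 70% on d4 and d7 and 80% on d15, and the share called lower was 60% on d1, 70% on d10 and 50% on d20. Rescaling each library to the same total took the median of all genes to between -0.14 and -0.20 and the shares called higher and lower to 18.3% and 50.2% on d1, 25.8% and 49.5% on d4, 22.7% and 49.1% on d7, 21.5% and 50.5% on d10, 30.3% and 47.2% on d15, and 19.9% and 50.8% on d20. Of the 10 genes, 6 were then higher on d4, 6 on d7 and 8 on d15, and 8 were lower on d1, 7 on d10 and 6 on d20. Without the third d7 library, 9 of the 10 genes were called higher on d7, against 36.8% of all genes. Without it, 2 were higher and 7 lower on d1 (34.4% and 31.8% of all genes), 8 and 2 on d4 (39% and 37.6%), 3 and 7 on d10 (39.6% and 33.1%), 8 and 1 on d15 (41% and 38.9%), and 3 and 6 on d20 (35.4% and 33.3%).

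**Figure D1:**
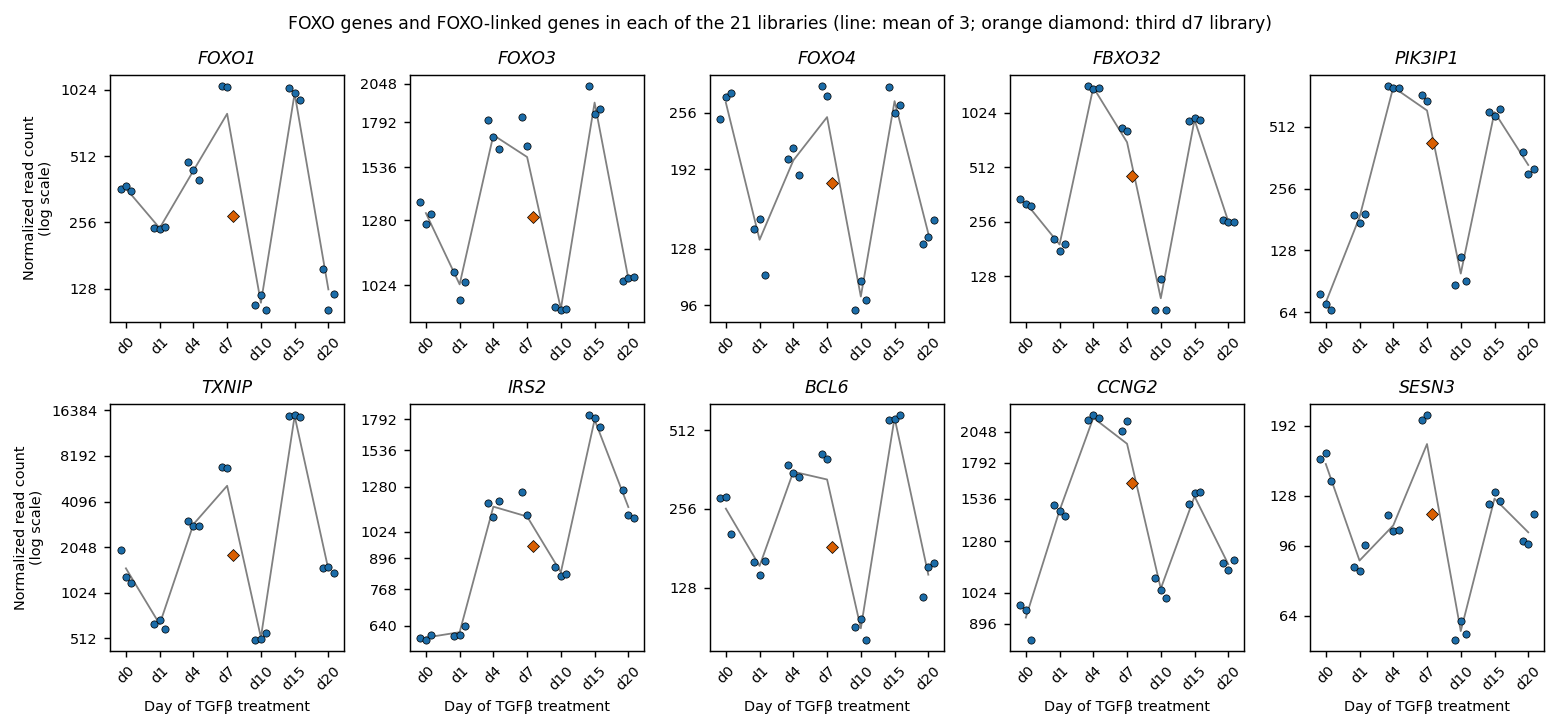
Normalized read count (log axis) of each of the 10 genes in every library, by day of TGFβ treatment; points are single libraries, lines join the means of 3, and the orange diamond is the third d7 library. The d10 mean is the lowest in 7 panels and the d15 mean the highest in 6, with TXNIP between 14824 and 15294 on d15.

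The steps between successive treated days do not use the d0 means, although the d0 libraries share in the estimate of the spread. From d1 to d4, 9 of the 10 genes rose (64.9% of all genes tested were called in either direction, and 32.9% higher). From d4 to d7 4 were called, SESN3 higher and FBXO32, PIK3IP1 and CCNG2 lower (51.1% of all genes). All 10 fell from d7 to d10 (71.4% of all genes called in either direction, and 35.2% lower). All 10 rose from d10 to d15 (79.8% in either direction, and 39.3% higher), and 9 fell from d15 to d20 (74.1%, and 36.3% lower). The median step was -1.65 on the log2 scale from d7 to d10, 2.02 from d10 to d15 and -0.92 from d15 to d20, with medians over all genes between -0.01 and 0. From d10 to d15 9 of the 10 genes changed at least 2-fold, a size of change that 22.3% of all genes reached. Without the third d7 library, 5 were called from d4 to d7, with FOXO1, FOXO4, TXNIP and SESN3 higher and FBXO32 lower (59.3% of all genes). All 10 again fell from d7 to d10 without it (75.3% in either direction, and 36.8% lower), with a median step of -1.97.

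FOXO1, the family member best known for the response to insulin, had the widest range of the 3 factor genes. Its values were 364, 376 and 357 on d0, and 241, 240.0 and 243 on d1. They were 480, 443 and 398 on d4, and 1069, 1049.9 and 275 on d7. The d10 libraries gave 108, 120.5 and 103, the d15 libraries 1049, 991 and 919.9, and the d20 libraries 158, 102 and 121. The lowest level was thus on d10 and the highest on d15, 8.86-fold apart. Against d0, FOXO1 rose on d7 (log2 fold change 0.88 ± 0.30 (SE), adjusted p = 0.0143) and on d15 (1.43 ± 0.30, adjusted p = 0.000235). It fell on d10 by 1.72 ± 0.30 (adjusted p = 3.86e-05) and on d20 by 1.54 ± 0.30 (adjusted p = 0.000159). On d1 the log2 fold change was -0.60 (adjusted p = 0.0966) and on d4 0.26 (adjusted p = 0.448), although the libraries did not overlap on either day. Without the third d7 library, the d7 value became 1.53 ± 0.10, the d1 value was called lower (adjusted p = 4.35e-07) and the d4 value higher (adjusted p = 0.0103). The call on d7 was lost without either of the other 2 d7 libraries (0.55 and 0.57) and with only the 2 groups in the fit (adjusted p = 0.147). The d20 and d10 libraries overlapped, as did those of d15 and d7.

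FOXO3, the factor most often tied to quiescence and long-lived stem cells, followed a similar course within a narrow range. Its mean was 1313 on d0, 1027 on d1, 1716 on d4, 1592 on d7, 945 on d10, 1919 on d15 and 1048 on d20. The lowest and highest days, d10 and d15, were only 2.03-fold apart. The libraries held 1365, 1264 and 1309 on d0, 1071, 975 and 1036 on d1, 1809, 1703 and 1636 on d4, and 1826, 1652 and 1297 on d7. They held 951, 939.7 and 943 on d10, 2033, 1848 and 1876 on d15, and 1039.8, 1049 and 1056 on d20. The d10 libraries lay below and the d15 libraries above all others. The differences from the next levels were not called (limma). The log2 difference was 0.16 for d15 over d4 (adjusted p = 0.0861) and 0.12 for d1 over d10 (adjusted p = 0.257). The calls against d0 covered every day, lower on d1 (-0.35 ± 0.08), d10 (-0.47) and d20 (-0.32), and higher on d4 (0.39), d7 (0.26) and d15 (0.55), with adjusted p between 2.05e-06 and 0.00572. Without the third d7 library, the d7 value was 0.40, without the first it was 0.16 (adjusted p = 0.061), and after rescaling to the same total 0.07 (adjusted p = 0.395). The d4 and d7 libraries overlapped, and so did those of d20 and d1.

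FOXO4, the X-linked member, was at no time called higher than in untreated cells. It had 248, 277 and 283 on d0, 141, 149 and 112 on d1, and 202, 214 and 186 on d4. On d7 it had 293, 278 and 179, and on d10 93.6, 109 and 98.8. On d15 the values returned to 292, 256 and 266, and on d20 they were 131, 136 and 148. The libraries of d0, d7 and d15 overlapped, while those of d1, d10 and d20 lay below them all. FOXO4 fell on d1 (log2 fold change -1.01 ± 0.14, adjusted p = 2.57e-06), d4 (-0.42, adjusted p = 0.0105), d10 (-1.42, adjusted p = 1.3e-08) and d20 (-0.96, adjusted p = 4.48e-06). On d15 the difference was 0.01 with a 95% interval from -0.28 to 0.30, and on d7 it was -0.14, or 0.09 without the third d7 library (adjusted p = 0.483) and -0.33 after rescaling to the same total, a call (adjusted p = 0.0361). FOXO6, the other mammalian family member, was looked for but was not listed under that symbol in the series.

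TXNIP, an arrestin family protein that binds thioredoxin and limits glucose uptake, showed the largest swing of the 10 genes. It had 1956, 1306 and 1186 on d0, and 637, 672 and 592 on d1. It had 3054, 2837 and 2803 on d4, and 6970.3, 6842 and 1803 on d7. It dropped to 502, 502 and 552 on d10, stood at 15025, 15294 and 14824 on d15, and was back at 1487, 1503 and 1390.5 on d20. The d15 libraries lay 29-fold above those of d10 on average, and the d20 libraries lay within the range of d0. TXNIP fell on d1 (-1.19 ± 0.30, adjusted p = 0.00199) and d10 (-1.48, adjusted p = 2e-04), and rose on d4 (1.00, adjusted p = 0.0058), d7 (1.61, adjusted p = 8.76e-05) and d15 (3.38, adjusted p = 1.62e-09). On d20 the difference was 0.01 (95% interval -0.62 to 0.64, adjusted p = 0.976). Without the third d7 library the rise on d7 was 2.25 ± 0.09, and the rise from d4 to d7 was called (1.25, adjusted p = 6.39e-15), whereas it was not with all libraries (0.61, adjusted p = 0.101).

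FBXO32, which encodes the F-box protein atrogin-1 of a ubiquitin ligase known from muscle wasting, peaked earlier. Its 3 values were 342, 321 and 313 on d0, 204, 176 and 194 on d1, and 1446, 1396 and 1407 on d4. They were 844, 813 and 455 on d7, and 82.6, 123 and 83.1 on d10. On d15 they were 919, 956 and 934, and on d20 261, 256 and 255. No libraries of neighbouring levels overlapped, in the order d4, d15, d7, d0, d20, d1 and d10. FBXO32 rose 4.35-fold on d4 (log2 2.12 ± 0.16, adjusted p = 1.56e-10), 2.09-fold on d7 (adjusted p = 6.54e-06) and 2.88-fold on d15 (adjusted p = 2.16e-08). It fell on d1 by 0.76 (adjusted p = 0.000365) and on d10 by 1.77 (adjusted p = 3.65e-09) on the log2 scale. On d20 the log2 fold change was -0.34 (adjusted p = 0.0755, or 0.00076 without the third d7 library). Without that library, the d7 value was 1.35.

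BCL6, a transcriptional repressor, had log2 fold changes of the same sign as FOXO3 on every day, over a wider range, as had FOXO1 and FBXO32. Its values were 281, 283 and 206 on d0, 160.0, 144 and 162 on d1, 375, 352 and 339 on d4, and 415, 397 and 183 on d7. The d10 values were 90.6, 97.2 and 81.2, those of d15 were 560.0, 567 and 585, and those of d20 118, 154 and 159.6. The d15 libraries lay above and the d10 libraries below all others. BCL6 fell on d1 (-0.71 ± 0.20, adjusted p = 0.00491), d10 (-1.50, adjusted p = 1.32e-06) and d20 (-0.83, adjusted p = 0.00127), and rose on d4 (0.48, adjusted p = 0.0392) and d15 (1.16, adjusted p = 2.43e-05). On d7 the log2 fold change was 0.29 (adjusted p = 0.209), and without the third d7 library it was called, at 0.67 (adjusted p = 2.1e-06). The call on d4 was lost without d0 library 3 (0.33) or any single d4 library (0.44 to 0.51), with no filter (adjusted p = 0.0575) and after rescaling to the same total (0.28).

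PIK3IP1, a membrane protein that inhibits PI3K, was higher than in untreated cells on all 6 treated days. Its values were 78.3, 70.4 and 65.3 on d0, 189, 174 and 194 on d1, and 811, 789.7 and 794 on d4. They were 733, 685 and 425 on d7, 86.6, 119 and 90.9 on d10, 607, 577 and 626 on d15, and 384, 299.9 and 317 on d20. All treated libraries lay above all d0 libraries, and the d10 libraries came nearest to them. The rise was 11.1-fold on d4 (log2 3.47 ± 0.15, adjusted p = 9.42e-15), 8.3-fold on d7 and 8.37-fold on d15, and it shrank to 1.37-fold on d10 (log2 0.45, adjusted p = 0.0105). The d10 call was lost without d10 library 2 (0.31, adjusted p = 0.0841), with edgeR (0.43, adjusted p = 0.0909) and after rescaling to the same total (0.23). On d1 the rise was 2.59-fold and on d20 4.61-fold. The libraries of d7 and d15 overlapped. Without the third d7 library, the log2 value on d7 was 3.30 instead of 3.05.

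IRS2, an adaptor that carries the signal from the insulin receptor to PI3K, was above d0 from d4 on. It was at 602, 598 and 611 on d0 and 609, 613 and 639 on d1, where the libraries overlapped (log2 fold change 0.04, adjusted p = 0.654, or -0.15, adjusted p = 0.0465, after rescaling to the same total). It was at 1183, 1104 and 1193 on d4, 1245, 1114.5 and 953 on d7, and 858, 821 and 830.2 on d10. The d15 libraries held 1832, 1804 and 1729, above all others, and the d20 libraries 1263, 1114.5 and 1095. IRS2 rose on d4 (log2 0.94 ± 0.07), d7 (0.86), d10 (0.47), d15 (1.56) and d20 (0.93), with adjusted p of at most 4.03e-06, and the d7 value was 0.96 without the third d7 library. The libraries of d4, d20 and d7 overlapped.

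CCNG2, an atypical cyclin that slows the cell cycle, was higher on all 6 treated days as well. It held 974, 949.97 and 837 on d0, 1496, 1457 and 1427 on d1, and 2154, 2204 and 2173 on d4. Its values were 2055, 2142 and 1642 on d7, 1092, 1035 and 1001 on d10, 1499.5, 1576 and 1579.7 on d15, and 1163, 1130.3 and 1181 on d20. All treated libraries lay above the 3 untreated ones. The log2 fold change was 0.67 on d1, 1.24 ± 0.07 on d4 (adjusted p = 1.2e-12), 1.07 on d7 (1.19 without the third library), 0.18 on d10 (adjusted p = 0.0276), 0.76 on d15 and 0.33 on d20. Rescaling to the same total took the d10 value to -0.04 and the d20 value to 0.13 (adjusted p = 0.0943), and the d10 call was also lost under quantile normalization (0.07), with edgeR (0.14, adjusted p = 0.101) and without any 1 of d0 library 3, d10 library 1 and d10 library 2 (0.12 to 0.19).

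SESN3, a sestrin that restrains mTORC1 under stress, was like FOXO4 in that no day was called higher than d0 with all libraries in the fit. Its values were 158, 164 and 139.5 on d0, 84.7, 83.1 and 96.3 on d1, and 115, 104 and 105 on d4. They were 198, 204 and 115 on d7, 55.7, 62.2 and 57.7 on d10, 122, 131 and 124 on d15, and 98.6, 96.8 and 116 on d20. The d10 libraries lay below all others, and 2 of the d7 libraries above all others. SESN3 fell on d1 (-0.80 ± 0.15, adjusted p = 0.000126), d4 (-0.51, adjusted p = 0.00544), d10 (-1.38, adjusted p = 7.1e-08) and d20 (-0.57, adjusted p = 0.00285). On d15 the log2 fold change was -0.28 (adjusted p = 0.0956, or 0.0192 without the third d7 library). On d7 it was 0.12 (adjusted p = 0.487), and without the third d7 library it was called higher, at 0.39 (adjusted p = 0.00543).

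**Figure D2:**
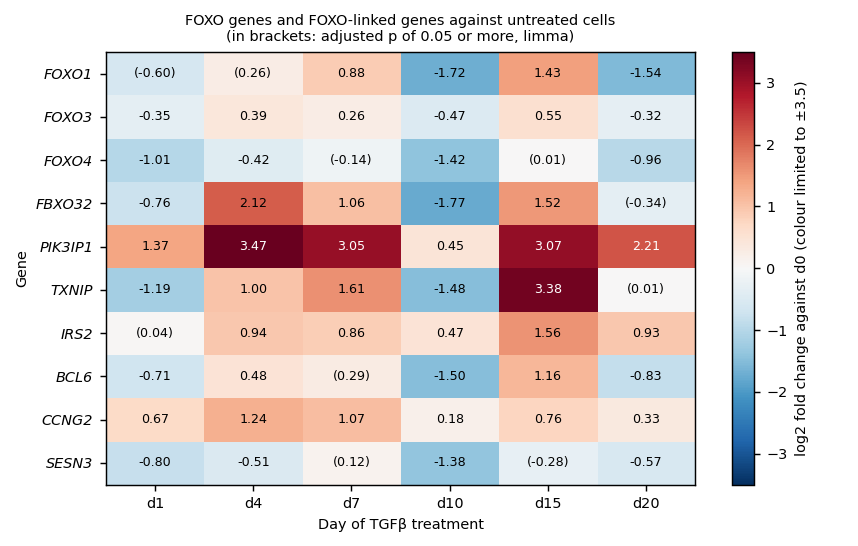
Log2 fold change against d0 of each of the 10 genes (rows) on each treated day (columns), with values in brackets where the adjusted p was 0.05 or more. PIK3IP1, IRS2 and CCNG2 are above 0 in every column, FOXO4 and SESN3 are at or below 0.12, and the other 5 genes are below 0 on d1 and d10 and above 0 on d15.

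The 10 genes therefore differed in what stayed changed. PIK3IP1 and CCNG2 were called higher on 6 days and IRS2 on 5, and all 3 still stood above d0 on d20 (CCNG2 at 0.13, not called, after rescaling to the same total). FOXO1, FOXO3, FBXO32, TXNIP and BCL6 were called higher on d15 and lower on d10. For these 5 genes, chosen by those calls, the difference between d15 and d10 was 3.15 ± 0.30 on the log2 scale for FOXO1, 1.02 ± 0.08 for FOXO3, 3.29 ± 0.16 for FBXO32, 4.86 ± 0.30 for TXNIP and 2.66 ± 0.20 for BCL6, which is a description. FOXO4 and SESN3 were called lower on 4 days each.

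The genes with the most similar course were ranked by the root mean square difference of their log2 values from the gene described, each gene centred on its own mean, over the 21 libraries and 11489 genes with a mean of at least 50. TXNIP was closest to GDF15, a stress-induced cytokine, at 0.31, and to CDKN1C, the cyclin-dependent kinase inhibitor p57, at 0.41, while TXNIP itself varied by 1.6 around its mean. FOXO1 was closest to HES2 (0.31) and TMC4 (0.35), and FBXO32 to KLHL24 and SERPINA5 (0.39 each). FOXO3 was closest to MED13L, a Mediator kinase module subunit, at 0.07 and WASF2 at 0.08. FOXO4 was closest to PROS1 (0.15) and WLS (0.16), and SESN3 to STARD5 (0.16) and again WLS (0.19). BCL6 was closest to LYST (0.24) and ST6GALNAC2 (0.25), and IRS2 to EVC and A1BG (0.17 each). PIK3IP1 was closest to MRAS, a RAS family GTPase, at 0.40 and YPEL2 at 0.46, and CCNG2 to IGSF3 and SNX33 (0.12 each). Genes with a narrow range give smaller distances, so these values rank genes only within 1 search.

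Genes of S phase and mitosis moved the other way on d4, d7 and d15. The 22 proliferation genes were all called lower on d4 and on d15, 21 were lower and 1 higher on d7 (with or without the third d7 library), and the split was 3 higher and 9 lower on d1, 7 and 4 on d10, and 5 and 6 on d20. Their median log2 fold change was -0.67 on d4, -0.49 on d7 and -1.77 on d15, and between -0.07 and 0.04 on the other days, on which rescaling moved the counts by over 1.5 times. On d15 E2F1, a transcription factor of S phase genes, fell by 2.92 on the log2 scale, RRM2, a ribonucleotide reductase subunit, by 2.69 and MCM2, a subunit of the replicative helicase, by 2.59. On d1 TOP2A fell by 0.64 and the cyclin gene CCNB2 by 0.49, and E2F1 rose by 0.40. On d20 TYMS rose by 0.88 and RRM2 by 0.52, and MCM2 fell by 0.55. For the counts of this list, the shares of all genes are those given above for each day.

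Per library, the mean log2 change from d0 over the 10 genes was 1.30 to 1.33 on d15, where that of the proliferation genes was -1.75 to -1.69. It was 0.85 to 0.95 on d4 (proliferation genes -0.78 to -0.75), and -0.92 to -0.76 on d10 (proliferation genes 0.05 in each library). On d1 it was -0.36 to -0.31 (proliferation genes -0.11 to -0.09), and on d20 -0.16 to -0.08 (proliferation genes -0.05 to -0.01). On d7 the third library had 0.30 for the 10 genes and -0.28 for the proliferation genes, whereas the other 2 had 1.24 and 1.19 for the 10 genes and -0.71 and -0.65 for the proliferation genes. The part of proliferation in the values of the 10 genes was not tested.

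**Figure D3:**
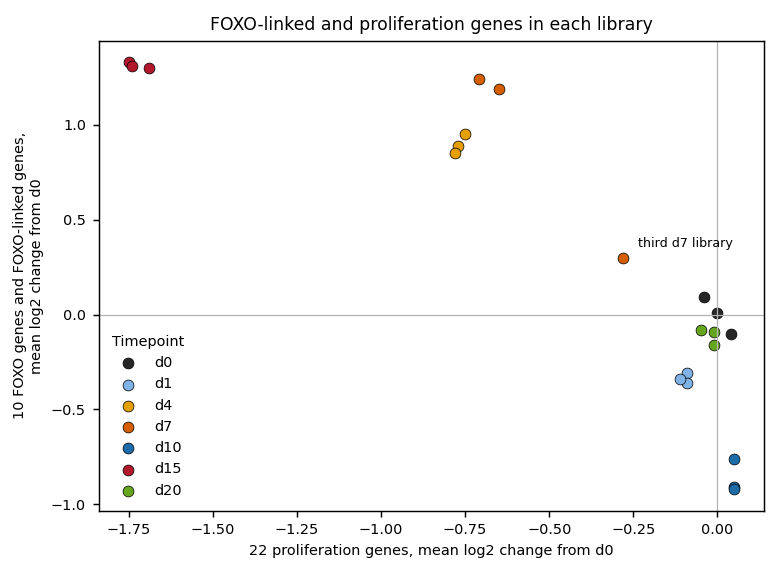
Mean log2 change from d0 over the 10 genes (vertical axis) against that over 22 proliferation genes (horizontal axis), 1 point per library, coloured by timepoint. The d15 libraries lie at the upper left, d4 and 2 d7 libraries between, and the d10 libraries at the lower right, with the third d7 library apart from the other 2.

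Other textbook FOXO targets were partly higher on the same days. Of 22 such genes 19 were tested, and TRIM63, PDK4 and PCK1 were below the minimum mean of 10. On d15 14 were higher and 3 lower, with a median log2 fold change of 0.88, and on d4 12 were higher and 5 lower (0.54). On d10 5 were higher and 11 lower (-0.39), on d1 7 and 9 (-0.12), on d7 9 and 4 (0.13, or 11 and 4 without the third d7 library), and on d20 8 and 6 (0.08). The background shares are those given above for each day.

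CDKN1A, which encodes the cyclin-dependent kinase inhibitor p21 and is also a p53 target, rose most. It lay between 1668 and 1937 on d0 and between 22797 and 23650 on d15, a 12.8-fold rise (log2 3.68 ± 0.32, adjusted p = 1.12e-09), and was still higher on d20 (1.68, adjusted p = 0.000124). Its d7 libraries held 4839.8, 20637 and 22956, so 1 of them lay far below the other 2. BBC3, which encodes the cell death activator PUMA, rose 4.49-fold on d15 (log2 2.17), and ULK1, a kinase that starts autophagy, 3.74-fold (1.90).

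ERBB3, a receptor of the EGFR family known to be turned on by FOXO factors, fell by 1.78 on d1 and by 2.76 on d20 on the log2 scale, from between 1042 and 1069.7 in the untreated libraries to between 149.8 and 164 on d20. BCL2L11, which encodes the cell death activator BIM, fell by 1.61 on d1 and by 1.87 on d20, and rose on d15 (0.52, adjusted p = 0.00205). PINK1, a kinase that marks damaged mitochondria, rose on all 6 treated days, by 0.96 to 1.51 (1.14 on d1). The 3 targets called lower on d15 were ERBB3 (-1.18), CAT (-1.11) and BNIP3 (-0.15). CAT was called lower on every treated day. In the third d7 library, 15 of the 19 targets were lower than the mean of the other 2, as were 48.7% of all genes tested.

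**Figure D4:**
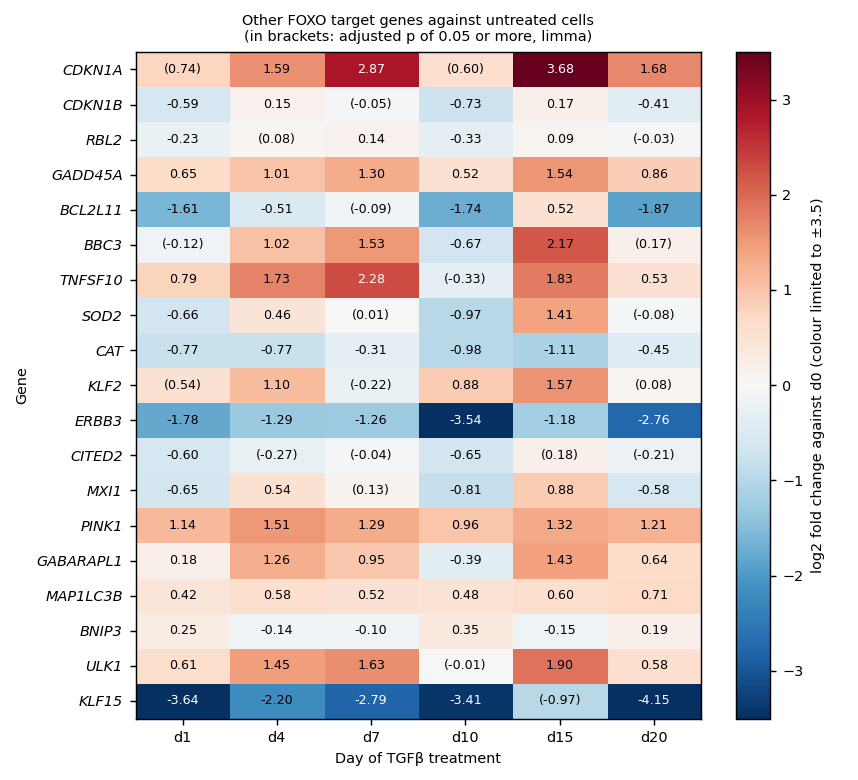
Log2 fold change against d0 of the 19 other FOXO targets tested (rows) on each treated day (columns), in brackets where the adjusted p was 0.05 or more. CDKN1A reaches 3.68 on d15, whereas ERBB3, CAT and KLF15 are below 0 in every column.

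Close relatives of the 10 genes differed from them in places. Of 9 relatives 8 were listed and 7 tested, and BCL6B, the closest relative of BCL6, had at most 3 reads in every library. On d15 5 of the 7 were higher and 1 lower (39.2% and 37.3% of all genes tested). The arrestin family genes ARRDC4 and ARRDC2, relatives of TXNIP, rose by 1.53 ± 0.20 and 1.49 ± 0.08 on the log2 scale, and SESN1, a relative of SESN3 and a p53 target, by 1.03 ± 0.22 (adjusted p = 0.000205). SESN1 had fallen on d1 by 0.61, and its d7 libraries ranged from 372 to 986. IRS1, the other main insulin receptor substrate, rose on d1 by 0.70 and on d20 by 0.69. CCNG1, the p53-induced relative of CCNG2, fell on d1 by 0.48 and on d20 by 0.59, opposite to CCNG2, and ARRDC3 fell on d20 by 0.73.

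Upstream of the factors, transcripts of the PI3K-AKT input changed in both directions. Of 19 such genes 18 were tested, and SGK3 was below the minimum mean. On d1 7 were higher and 8 lower (31.3% and 28.5% of all genes tested), and on d20 7 and 7 (32.5% and 30.2%). On d15 12 were higher and 4 lower (39.2% and 37.3%), with 7 higher after rescaling to the same total (30.3% of all genes). The medians were -0.03 on d1, 0.23 on d15 and 0.04 on d20. PIK3CD, a catalytic subunit of PI3K best known in leukocytes, rose from between 348 and 366 on d0 to between 1432 and 1511 on d1 (log2 2.05 ± 0.04, adjusted p = 4.17e-20), and by 1.28 on d15 and 1.70 on d20. INPP4B, a phosphatase that removes a product of PI3K, rose by 1.96 on d1 and 1.45 on d20.

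INSR, the insulin receptor gene and itself a known FOXO target, was among the 3 largest changes of this list on d15 but not on d1 or d20, with a rise from between 77.4 and 89.1 in the untreated libraries to between 255 and 288 (log2 1.70 ± 0.16, adjusted p = 2.11e-09). PIK3CD was higher on d1, when 2 of the 10 genes were higher and 6 lower. It was also higher on d15, when 8 of the 10 were higher and none lower. A link between these transcripts and the 10 genes was not tested.

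**Figure D5:**
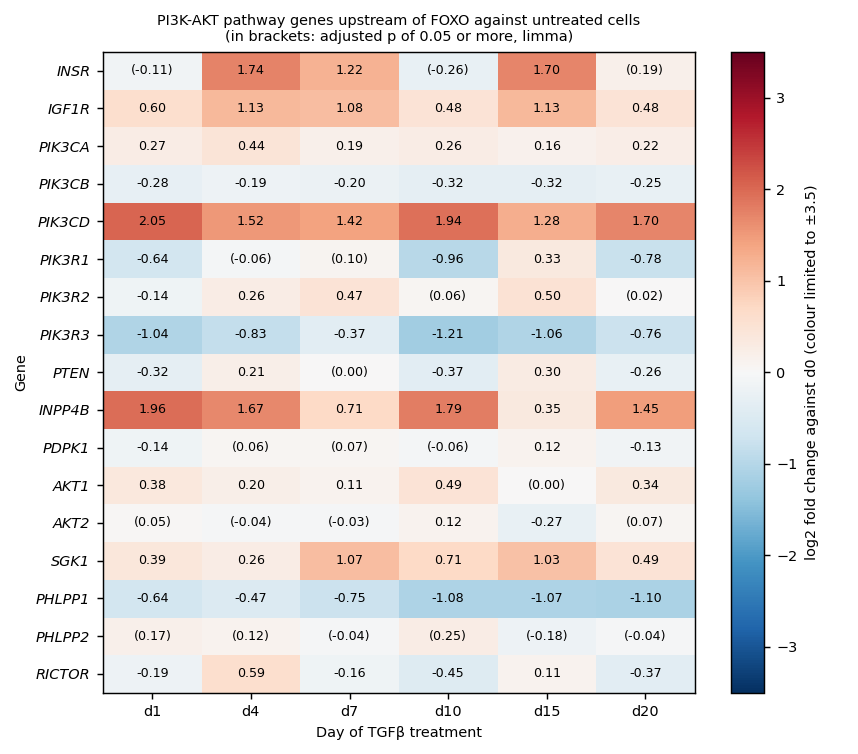
Log2 fold change against d0 of 17 of the PI3K-AKT pathway genes tested (rows) on each treated day (columns), in brackets where the adjusted p was 0.05 or more. PIK3CD and INPP4B are above 0 in every column, and INSR is at 1.70 on d15.

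Genes whose products act on FOXO proteins were also measured. Of the 18, all tested, 6 were higher and 10 lower on d15 (39.2% and 37.3% of all genes tested), with a median of -0.18. MDM2, a ubiquitin ligase and p53 target, rose by 1.18 ± 0.28 on d15, and its d7 libraries held 1039, 3837 and 3839. SKP2, the F-box protein that targets FOXO1 and p27 for degradation, fell on d15 by 1.13 ± 0.05, and SIRT2, a deacetylase of FOXO proteins, rose by 0.79. SFN, a 14-3-3 protein of epithelial cells, rose on d1 by 1.18 and on d20 by 0.93, and YWHAH, another 14-3-3 gene, by 0.64 and 0.45. YWHAB, also a 14-3-3 gene, rose on d1 by 0.43, and SKP2 fell on d20 by 0.46.

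Of 13 genes of cell cycle exit, 7 were higher and 4 lower on d15 (39.2% and 37.3% of all genes tested), with a median of 0.77. The 4 lower genes were LIN9 (-0.92), LIN54 (-0.37), LIN52 (-0.34) and DYRK1A (-0.21). CDKN1C rose from between 46.5 and 75.5 on d0 to between 321 and 349 (log2 2.48 ± 0.32, adjusted p = 4.73e-07), and the antiproliferative genes BTG2 and BTG1 rose by 1.79 and 1.47. CDKN1C had fallen on d1 by 1.71 and BTG2 by 0.73, while HES1, a Notch target, rose on d1 by 0.92 and on d20 by 0.79. On d20 BTG1 rose by 0.58, and E2F5, a repressor E2F, fell by 0.57. BTG2 was among the genes divided on d7, with libraries of 823, 2532 and 2575.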

How the data were processed

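Bulk RNA-seq libraries of 7 timepoints, 3 each, came from what the authors describe as biological triplicates. The authors deposited 1 normalized signal per gene and library, which is reads divided by a size factor per library. Dividing by the value of 1 read gave whole reads (within 0.02) for 100% of the values in every library. The submitters' processing notes name STAR 2.7, Salmon 1.4 and hg19, and the annotation and counting steps are not given in the sources used here. Genes with a mean of at least 10 (13343) were tested on log2(value + 1), which understates changes of low genes, using limma 3.58.1 under R 4.3.3, with an eBayes trend. One mean per timepoint was fitted over all 21 libraries. Benjamini-Hochberg adjusted p-values under 0.05, taken within each contrast, were called. Other settings tried were edgeR 4.0.16 and DESeq2 1.42.0 on the recovered reads, fits of only the 2 groups or of all groups but d7, quantile normalization, rescaling to the same total, a pseudocount of 10, testing unfiltered genes, and leaving out each library. A fit without the third d7 library for comparisons that do not involve d7 was added after seeing the data. The fit was tested on simulated data. A gene with at most 3 reads was treated as at the floor, which covers counting error only. The 10 genes and all lists were chosen with earlier results of these data known. Apart from the 10 genes, the genes named from each list come from the 3 largest changes among the genes called at d1, d15 and d20 whose mean reached 50 in either group, and the 2 genes closest in course to each of the 10. Other genes named, the markers, genes below the filter and values on other days, were chosen after their values were seen. So were further genes named from the lists of other FOXO targets and of cell cycle exit because they were lower. Promoter windows came from RefSeq GRCh38.p14 by symbol, and no coordinate of the authors' build was used. Values of some list genes are not reported here. Figures were drawn with matplotlib 3.10.9.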

Additional observations from a re-analysis of the deposited data

Results flagged for a closer look

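FOXO1, FOXO3, FBXO32, TXNIP and BCL6 were picked out because each was higher than in untreated cells at d15 and lower at d10 (limma). These calls fix the direction between both days, so the differences are a description. The difference on the log2 scale was 3.15 for FOXO1, 1.02 for FOXO3, 3.29 for FBXO32, 4.86 for TXNIP and 2.66 for BCL6. Of all genes tested, 79.8% differed between these days, and 39.3% were higher on d15.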

How the results depend on the processing

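No paired analysis was possible because a column's name gives its day but not its replicate. Of 880 log2 fold changes of the 10 genes against d0 under an alternative, 824 had the same sign and stayed on the same side of 0.05, 21 lost the call, 19 gained it and 16 changed sign, and of 247 counts of genes called 235 stayed within 1.5 times. All 10 genes were called between d7 and d10 and between d10 and d15, and 9 between d15 and d20, with any library of the days compared left out. Rescaling each library to the same total gave -0.15 for IRS2 on d1, -0.07 for SESN3 on d7, -0.04 for CCNG2 on d10, -0.15 for FOXO4 on d15 and -0.19 for TXNIP on d20, all changes of sign, and counts of 1 lower on d7, 1 higher on d10 and 1 lower on d15. TXNIP on d20 was -0.09 under quantile normalization, -0.05 with edgeR and -0.03 with DESeq2, and FOXO4 on d15 was -0.01 with edgeR. The 1 gene lower on d15, SESN3, was also counted under quantile normalization, with only the 2 groups in the fit, with all groups but d7, and without the third d7 library (a fit chosen after seeing the data). With only the 2 groups, 1 gene was called from d4 to d7, and edgeR called 1 higher on d10. Leaving out single libraries gave ranges of -0.27 to 0.09 for FOXO4 on d7 (the latter without the third library), -0.02 to 0.39 for SESN3 on d7, -0.05 to 0.05 for FOXO4 on d15 and -0.13 to 0.23 for TXNIP on d20. It gave 1 to 3 genes higher on d10 (1 without d10 library 2) and 2 to 6 genes called from d4 to d7 (2 without d4 library 1 or 3). The causes were not tested. Among the lists, counts of proliferation genes moved to 0 higher and 14 lower on d1, 3 and 11 on d10, and 2 and 13 on d20 after rescaling to the same total. Counts of FOXO protein regulators moved from 5 higher and 6 lower to 2 and 13 on d7, and from 10 and 4 to 4 and 9 on d10, in the same way. The other FOXO targets higher on d10 fell from 5 to 3 under that rescaling and without d0 library 2 or d10 library 1. The lowest count of any of the 10 genes was 56 reads, so counting error is part of the spread of the low ones.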
